A study of Mus musculus with 16 samples.

Results

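The nuclear tRNA-Asp-GTC and tRNA-Tyr-GTA families are the cytosolic tRNAs that carry aspartate and tyrosine to the ribosome, named by amino acid, DNA letters of the anticodon and a running number. They were taken as every row of the deposited count tables that carries either name, with mitochondrial tRNAs and the tRNA-like rows named tRX left out. This gave 8 rows in each table: tRNA-Asp-GTC-1, -2, -3 and -4, and tRNA-Tyr-GTA-1, -2/3, -4 and -5, where 2/3 is 1 row for a pair of transcripts that were not told apart. The rows are isodecoders, tRNAs with the same anticodon and small differences elsewhere. They are 8 of 819 rows in the fibroblast table, of which 265 are nuclear tRNAs, and 8 of 821 rows in the heart table, of which 267 are nuclear tRNAs. The nuclear rows fall into 57 anticodons in each table, and a family was followed both by its rows and by the sum of its rows, called its anticodon sum.

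The study measured tRNA abundance by mim-tRNAseq, which reads nearly full-length tRNA, in a project that base-edits a disease mutation in mitochondrial tRNA-Ala. Hearts came from a mouse model labelled m.5024T, with 4 mice in the AAV9-GFP arm and 4 in the AAV9-DdCBE arm, and all 8 share that background. AAV9 is a viral vector that reaches the heart well, GFP is a fluorescent protein that serves as the control, and DdCBE names a cytosine base editor for mitochondrial DNA. Titles add a multiplier to each heart. The AAV9-GFP hearts were mice 5 and 6 (5X) and mice 14 and 19 (3X). The AAV9-DdCBE hearts were mice 17 and 18 (10X), mouse 25 (5X) and mouse 26 (2X). The mouse embryonic fibroblasts (MEFs) came from a line named Ctrl_1 and from lines named Cl_1, Cl_2 and Cl_3, each with 2 libraries from different passages. The labels used here do not explain the multipliers, Ctrl or Cl, and give no age, strain or promoter. Each MEF group is therefore 1 line, and a test over its libraries measures the spread between passages of that line.

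Both families are read at a special first anticodon base. In mammals the guanine at this wobble position of the tRNAs for aspartate, tyrosine, asparagine and histidine is exchanged for queuosine by the enzyme tRNA-guanine transglycosylase, which uses queuine, a base that animals take from food and gut microbes. In the cytosolic tRNA-Asp the queuosine then receives a mannose, and in the cytosolic tRNA-Tyr a galactose, whereas cytosolic tRNA-Asn and tRNA-His keep it without a sugar. Genes for tRNA-Tyr carry an intron that is spliced out before the tRNA is used. The counts measure how many reads each tRNA received and hold no value for queuosine, its sugars or charging. A RefSeq table of the assembly GRCm38.p6, used for names only, lists 16 genes for tRNA-Asp-GTC, each 72 bp long, and 10 for tRNA-Tyr-GTA, 86 to 93 bp long with the intron.

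Library totals were 1473330 to 4375975 counts in MEFs and 1540287 to 3037178 in hearts. Nuclear tRNAs made up 96.3% to 97.9% of MEF counts and 40.1% to 62.6% of heart counts, where mitochondrial tRNAs took the rest, and the heart of mouse 17 stood apart with 59.9% mitochondrial counts. Both tables hold tRNAs alone, so the labelled tissue and cell type could not be set against marker genes. In both tables, 6 of the 8 rows passed the filter on low counts. tRNA-Asp-GTC-3 had at most 4 counts in a library and tRNA-Tyr-GTA-5 at most 1, and both are left out of the tests. The 10 tRX rows of aspartate and tyrosine in each table held 1 count in all in the MEFs and 0 in the hearts.

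The hearts differed widely in nuclear tRNA-Asp. Its share of nuclear tRNA counts was 3.87% in mouse 5, 4.02% in mouse 6, 1.55% in mouse 14 and 3.69% in mouse 19 of AAV9-GFP. In the AAV9-DdCBE hearts it was 4.02% in mouse 17, 2.39% in mouse 18, 1.69% in mouse 25 and 3.69% in mouse 26. Mice 14, 18 and 25 were thus low and the other 5 hearts lay close together, with low and high hearts in both arms. tRNA-Tyr kept to a narrower band in the same hearts, with shares of 3.73%, 3.31%, 3.36% and 3.64% in mice 5, 6, 14 and 19. Its shares in mice 17, 18, 25 and 26 were 4.51%, 3.23%, 3.01% and 3.56%. The hearts that were low in tRNA-Asp were also in the lower part of the tRNA-Tyr range, but mouse 6, high in tRNA-Asp, was there too.

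**Figure D1:**
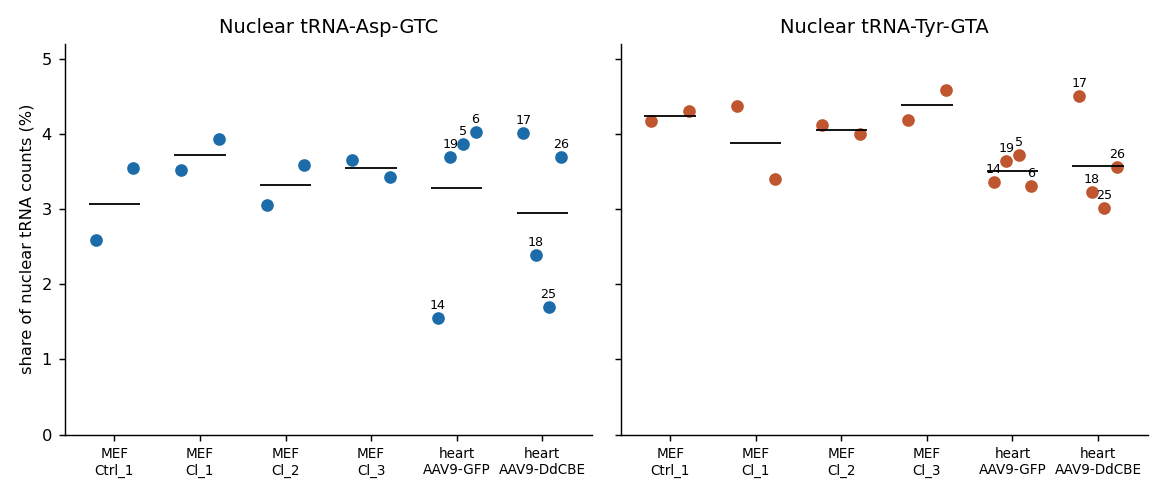
Share of nuclear tRNA counts (%, vertical axis) taken by nuclear tRNA-Asp-GTC (left) and tRNA-Tyr-GTA (right) in 4 MEF lines and both arms of hearts; each point is a library, numbers are mice and bars are group means. tRNA-Asp runs from 1.55% to 4.02% in the hearts with mice 14, 18 and 25 lowest, and tRNA-Tyr from 3.01% to 4.51%.

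After scaling of libraries, the tRNA-Asp anticodon sum ran from 8612 to 23144 CPM over the 8 hearts (CPM, counts scaled by TMM to a common library size; median 21191). The highest heart was 2.69-fold above the lowest, with a coefficient of variation of 35.3%. Of the 48 nuclear anticodon sums that passed the filter this was the widest spread, where the median sum spread 1.28-fold with a coefficient of variation of 8.12%. tRNA-Asp was also first of 48 within AAV9-GFP (2.69-fold), within AAV9-DdCBE (2.33-fold), with counts scaled to nuclear tRNAs alone (2.60-fold), and with each heart left out in turn (2.44-fold to 2.69-fold). The AAV9-GFP value is set by mice 6 and 14, the same pair as the value over all 8 hearts. Apart from mouse 14, that arm ran from 20797 to 23144 CPM. The tRNA-Tyr sum ran from 16881 to 24795 CPM, a 1.47-fold spread that ranked 10 of 48, and between 8 and 13 with each heart left out. Within AAV9-DdCBE it spread 1.47-fold, against 1.18-fold within AAV9-GFP. Mouse 17 was the highest heart, and without it the spread over the hearts was 1.31-fold. The other cytosolic tRNAs with a queuosine site spread less: tRNA-Asn-GTT 1.24-fold (rank 30) and tRNA-His-GTG 1.19-fold (rank 35). These ranks describe the libraries and carry no test.

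**Figure D2:**
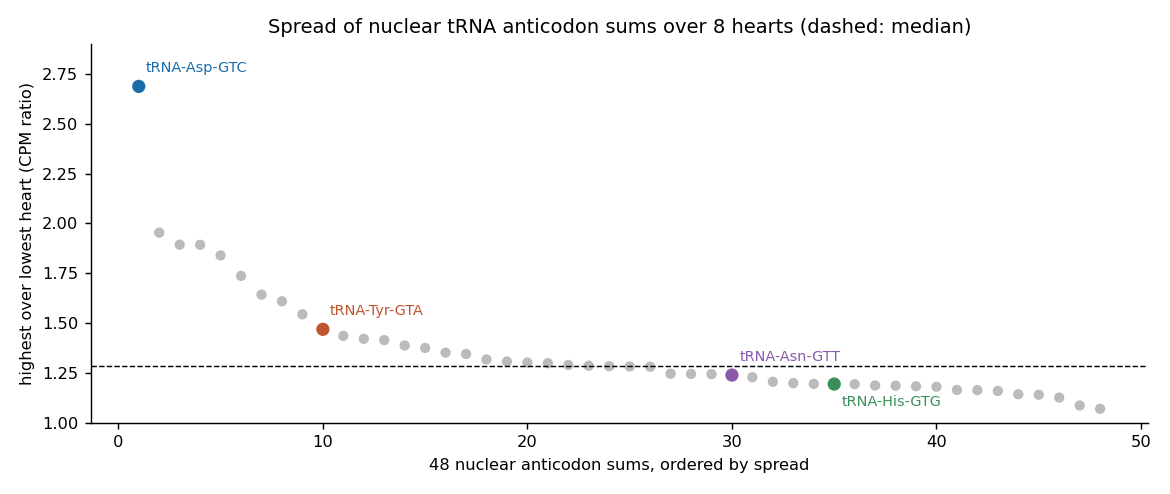
Highest over lowest heart (ratio of CPM, vertical axis) for 48 nuclear anticodon sums ordered by that ratio (horizontal axis); the dashed line is their median, 1.28. tRNA-Asp-GTC lies at 2.69, apart from the rest, tRNA-Tyr-GTA at 1.47, and tRNA-Asn-GTT and tRNA-His-GTG below the median.

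The 3 hearts low in tRNA-Asp were also the 3 with the fewest counts: 1540287 in mouse 14, 1646074 in mouse 25 and 2070246 in mouse 18, against 2242721 or more in the others. The part of library size in the low values was not tested. Among the MEFs the library with the fewest counts, replicate 2 of Cl_2 with 1473330, had a tRNA-Asp share of 3.58%, within the range of its table. That library is of another sample type and held 1433554 nuclear counts, against 885105 in mouse 14, so it gives no reading on the hearts. Fewer cells that make a tRNA and less of it per cell cannot be told apart in these bulk samples.

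All 3 measured tRNA-Asp isodecoders took part in the spread. CPM of rows were scaled in a fit of their own and are not on the same scale as CPM of sums. tRNA-Asp-GTC-1, which held 73.4% to 77.3% of the family's counts in the hearts, had 18118, 18812, 6694 and 17010 CPM in mice 5, 6, 14 and 19. It had 13121, 9062, 7226 and 17083 CPM in mice 17, 18, 25 and 26. Mice 14, 25 and 18 were lowest, as in the family sum, and the range was 2.81-fold. tRNA-Asp-GTC-2 had 4703, 4486, 1461 and 4085 CPM in the AAV9-GFP hearts in the same order. In the AAV9-DdCBE hearts it had 2213, 1693, 1691 and 3933 CPM, so mouse 17 joined the low hearts for this row on this scale. Per nuclear tRNA count mouse 17 lay between the low and the other hearts. It had 6357 of 1218078 counts, against 3969 of 1149667 in mouse 18 and 9343 of 1472581 in mouse 26. tRNA-Asp-GTC-4 had 1852, 2032, 667 and 1820 CPM in AAV9-GFP and 1705, 961, 745 and 1849 CPM in AAV9-DdCBE. Mice 14, 25 and 18 were again lowest, in that order. The tRNA-Asp-GTC-2 share of the family was 13.0% in mouse 17 and 14.5% in mouse 18, the 10X hearts, and 16.6% to 19.1% in the other 6.

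The tRNA-Tyr isodecoders ranged less. tRNA-Tyr-GTA-1 had 6397, 5471, 5661 and 6422 CPM in mice 5, 6, 14 and 19, and 7317, 5356, 4949 and 6482 CPM in mice 17, 18, 25 and 26. The arms overlapped, and mouse 17 was highest. tRNA-Tyr-GTA-2/3 had 15740, 13928, 12009 and 14398 CPM in AAV9-GFP and 9793, 8987, 10833 and 13735 CPM in AAV9-DdCBE. On this scale mice 17, 18 and 25 lay below every AAV9-GFP heart and mouse 26 among them. Per nuclear tRNA count, mouse 17 lay above mice 6 and 14 (28127 of 1218078 counts, against 35403 of 1599773 and 18628 of 885105). Mice 18 and 25 stayed below every AAV9-GFP heart. tRNA-Tyr-GTA-4 ranged from 1441 to 1752 CPM in AAV9-GFP and from 1438 to 2000 CPM in AAV9-DdCBE, with mouse 17 again highest.

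The nuclear anticodon sums whose levels over the 8 hearts were most like tRNA-Asp were tRNA-Val-AAC, tRNA-Val-CAC and tRNA-Leu-CAG, which carry valine and leucine. Pearson's r of log2 CPM was 0.997, 0.993 and 0.988, against a median of -0.20 over the 47 other sums. Without mice 14 and 25, the hearts farthest from the tRNA-Asp median, r was 0.986, 0.965 and 0.969 over 6 hearts, of which mouse 18 alone was low. These values rest on low against high hearts, share libraries and their scaling, and are a description with no test. In mice 14, 18 and 25 tRNA-Val-AAC had 4085, 5389 and 4322 CPM, against 6987 to 7514 CPM in the other hearts, so it was low in the same 3 hearts over a narrower 1.84-fold range. The range was 1.95-fold for tRNA-Val-CAC and 1.61-fold for tRNA-Leu-CAG. Of the other queuosine-site tRNAs, tRNA-Asn-GTT had an r of 0.87 with tRNA-Asp, tRNA-Tyr-GTA 0.72 and tRNA-His-GTG -0.83. For tRNA-Tyr the closest sums were tRNA-Ser-AGA, tRNA-Phe-GAA and tRNA-Asn-GTT, with r of 0.81, 0.76 and 0.73 over a median of -0.11. Without mice 17 and 25, the hearts farthest from the tRNA-Tyr median, these became 0.50, 0.65 and 0.51.

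**Figure D3:**
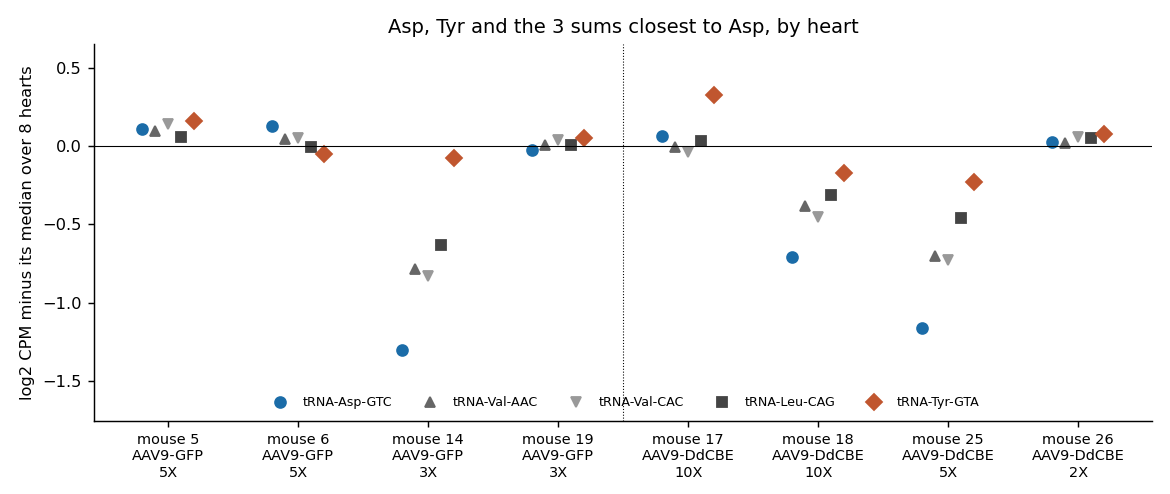
Level of nuclear tRNA-Asp-GTC, of its 3 closest anticodon sums and of tRNA-Tyr-GTA in each heart, as log2 CPM minus the median of that sum over the 8 hearts (vertical axis); the dotted line divides AAV9-GFP from AAV9-DdCBE. tRNA-Asp and the valine and leucine tRNAs dip together in mice 14, 18 and 25, with tRNA-Asp lowest, while tRNA-Tyr stays nearer to its median.

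AAV9-DdCBE was compared with AAV9-GFP to ask whether the editor changed these tRNAs, and neither family passed the test. The tRNA-Asp sum was 16541 ± 6297 CPM (SD, n = 4) with AAV9-DdCBE and 18857 ± 6910 CPM (SD, n = 4) with AAV9-GFP. The log2 difference was -0.19 (SE 0.38; 95% interval -1.07 to 0.69; edgeR quasi-likelihood test, adjusted p = 0.934). The spread within each arm leaves this interval wide for tRNA-Asp. The tRNA-Tyr sum was 20014 ± 3618 and 20077 ± 1529 CPM (SD, n = 4 each), with a difference of -0.0045 (SE 0.13; 95% interval -0.32 to 0.31; edgeR adjusted p = 0.975). None of the 70 sums tested passed (0%), with 3 at an unadjusted p under 0.05, 2 called by DESeq2 and neither family among the calls.

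By row, 0 of the 6 isodecoders passed in this comparison, as did 0 of 180 rows in all (0%). At an unadjusted p under 0.05 there were 35 rows, and DESeq2 called 27, none of them a tRNA-Asp or tRNA-Tyr row. The log2 differences of the 6 ran from -0.63 (tRNA-Asp-GTC-2, SE 0.38) to 0.087 (tRNA-Tyr-GTA-4, SE 0.16), with a median of -0.32 beside -0.10 over all rows. The smallest edgeR adjusted p was 0.257, for tRNA-Tyr-GTA-2/3 (-0.37, SE 0.17).

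In the pair of AAV9-DdCBE hearts labelled 10X, 1 of the 6 rows passed against the 4 AAV9-GFP hearts. On the scale of the row fit tRNA-Tyr-GTA-2/3 was lower in both hearts, with a log2 difference of -0.58 (SE 0.17; quasi-likelihood test in edgeR, adjusted p = 0.0220). In this comparison 51.7% of all rows passed, 27.8% of all rows were called lower, and the median over all rows was -0.23, so the count among the members is below the share of all rows. The call was lost with library totals (-0.49, adjusted p = 0.106), with scaling on nuclear tRNAs (-0.29, adjusted p = 0.186) and with no filter on low counts (-0.36, adjusted p = 0.202). It was also lost without mouse 17 (-0.64, adjusted p = 0.0528), mouse 18 (-0.51, 0.0507), mouse 5 (-0.34, 0.219), mouse 6 (-0.41, 0.219) or mouse 19 (-0.57, 0.0665), all by edgeR. Without mouse 14, 3 of the 6 rows passed, beside 121 of 182 rows in all. The other 5 rows ran from -0.92 (tRNA-Asp-GTC-2, SE 0.42, edgeR adjusted p = 0.0935) to 0.14 and did not pass. Of the 70 sums 0% passed by edgeR, with 15 at an unadjusted p under 0.05 and 13 called by DESeq2. The tRNA-Asp sum differed by -0.10 (SE 0.45) and the tRNA-Tyr sum by 0.077 (SE 0.16), with edgeR adjusted p of 0.922 and 0.865. The measured tRNA-Asp rows all lay below their sum, from -0.92 to -0.26. Rows and sums were scaled in separate fits, so their values are not on the same scale.

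The make-up of tRNA-Tyr also differed most in the 10X hearts. tRNA-Tyr-GTA-1 held 38.3% and 33.8% of the family's counts in mice 17 and 18, and 26.3% to 29.5% in the other 6 hearts. tRNA-Tyr-GTA-4 held 9.13% ± 1.03 with AAV9-DdCBE against 7.38% ± 0.504 with AAV9-GFP (SD, n = 4 each), without overlap. The exact two-sided permutation test gave p = 0.0286, the smallest that 4 against 4 allows. Benjamini-Hochberg adjustment over 9 shares made it 0.214, so this difference did not pass. With 4 against 4, a lone share without overlap cannot pass after that adjustment. The tRNA-Tyr-GTA-2/3 share was 58.3% against 64.8% (exact p = 0.0571) and the tRNA-Tyr-GTA-1 share 32.6% against 27.8% (exact p = 0.0857), and both adjusted to 0.214 as well. Mouse 17, with the most mitochondrial counts, lay at the end of the range in all 3 shares; the part of that library in the differences was not tested.

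In the MEFs, the Cl lines were compared with Ctrl_1. Averaged over the 3 Cl lines, 1 of 6 rows differed: tRNA-Asp-GTC-2 had 3911 and 4767 CPM in Ctrl_1, against 6555 and 6770 in Cl_1, 4892 and 5310 in Cl_2, and 5131 and 5718 in Cl_3. The 6 Cl libraries all lay above both Ctrl_1 libraries. The row rose by 0.39 on the log2 scale (SE 0.089, 1.31-fold; edgeR adjusted p = 0.00862). In this comparison 48.3% of 201 rows passed and 22.9% passed as higher, so 1 of 6 is fewer than the share of all rows. The other 5 rows ran from -0.19 (tRNA-Tyr-GTA-2/3, SE 0.11) to 0.21 (tRNA-Tyr-GTA-4, SE 0.11) and did not pass. Without replicate 1 of Ctrl_1 the tRNA-Asp-GTC-2 difference was 0.24 (edgeR adjusted p = 0.0882), and after adding up both libraries of a line, 3 lines against 1, it was 0.38 (edgeR adjusted p = 0.352). Leaving out replicate 1 of Cl_1 or replicate 2 of Ctrl_1 raised the count to 3 of 6, beside 101 of 207 and 74 of 208 rows in all. Leaving out replicate 2 of Cl_1 raised it to 2, beside 90 of 208.

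Line by line, with all contrasts sharing the Ctrl_1 libraries, tRNA-Asp-GTC-2 rose by 0.62 in Cl_1 (SE 0.11, edgeR adjusted p = 0.00407) and by 0.32 in Cl_3 (SE 0.11, edgeR adjusted p = 0.0379). In Cl_2 the difference was 0.23 (SE 0.11, edgeR adjusted p = 0.124). tRNA-Tyr-GTA-4 had 2141 and 2348 CPM in Ctrl_1 and 2901 and 3145 CPM in Cl_3, without overlap, and rose there by 0.43 (SE 0.13, edgeR adjusted p = 0.0260). So 1, 0 and 2 of 6 rows passed in Cl_1, Cl_2 and Cl_3. The shares over all rows were 33.8%, 46.3% and 50.7%, with 14.9% higher in Cl_1 and 26.4% higher in Cl_3. DESeq2 gave the same counts of 1, 0 and 2, and over all rows the unadjusted p was under 0.05 for 102 in Cl_2. Both Cl_3 calls were lost without replicate 1 of Cl_3 (0.23 and 0.48), replicate 2 of Cl_3 (0.40 and 0.37) or replicate 1 of Ctrl_1 (0.17 and 0.35), and that of tRNA-Asp-GTC-2 also without replicate 2 of Cl_2 (0.32) and with scaling on nuclear tRNAs (0.25, edgeR adjusted p = 0.0916). In Cl_2, tRNA-Asp-GTC-2 passed without replicate 2 of Ctrl_1 (0.40, edgeR adjusted p = 0.0266).

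The Cl lines were not called different from one another in any of the 6 rows (edgeR F test over the lines), where 24.4% of all rows passed. At an unadjusted p under 0.05 there were 2 of the 6 rows and 80 of 201 in all. tRNA-Asp-GTC-2 had an adjusted p of 0.0647 and tRNA-Tyr-GTA-4 one of 0.123. Without replicate 1 or replicate 2 of Ctrl_1 the adjusted p for tRNA-Asp-GTC-2 was 0.0363 or 0.0463, and by DESeq2 it was 0.00785. For tRNA-Tyr-GTA-4 it was 0.0385 without replicate 1 of Cl_1.

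Neither family sum passed in the MEFs. The tRNA-Asp sum was 24822 and 33529 CPM in Ctrl_1 and 30378 to 37090 CPM in the 6 Cl libraries, so 1 Ctrl_1 passage lay below and the other among them. Its mean difference was 0.24 (SE 0.11, edgeR adjusted p = 0.0964), and it was 0.46 without replicate 2 of Ctrl_1 (edgeR adjusted p = 0.00533) and 0.0079 without replicate 1. The tRNA-Tyr sum was 39992 and 40692 CPM in Ctrl_1 and 32084 to 45276 CPM in the Cl libraries, with a mean difference of -0.0035 (SE 0.11; 95% interval -0.26 to 0.25; edgeR adjusted p = 0.976). By line the differences were 0.31, 0.14 and 0.27 for tRNA-Asp and -0.086, -0.031 and 0.11 for tRNA-Tyr in Cl_1, Cl_2 and Cl_3. Of 74 sums 40.5% passed for the mean, 23%, 32.4% and 25.7% in Cl_1, Cl_2 and Cl_3 and 1.35% among the Cl lines. Without replicate 1 of Cl_1 the tRNA-Tyr sum passed in Cl_1 (-0.38, edgeR adjusted p = 0.0127), with 32084 CPM in the passage that remained against 43915 in the one left out.

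Set beside the other tRNAs with a queuosine site, cytosolic tRNA-His-GTG fell over the Cl lines by 0.46 on the log2 scale, on average (SE 0.053, edgeR adjusted p = 2.45e-04) and passed in each of the lines. It had 24882 and 24333 CPM in Ctrl_1 and 15693 to 19218 CPM in the Cl libraries, without overlap. Cytosolic tRNA-Asn-GTT differed by 0.19 (SE 0.072, edgeR adjusted p = 0.0577). The mitochondrial tRNAs of the same amino acids are separate genes of the mitochondrial genome. Of these mt-tRNA-Asp fell by 0.75 (SE 0.22, edgeR adjusted p = 0.0267) and mt-tRNA-His by 0.55 (SE 0.12, edgeR adjusted p = 0.00798), while mt-tRNA-Tyr differed by -0.26 (adjusted p = 0.0736) and mt-tRNA-Asn by 0.52 (adjusted p = 0.173). Mitochondrial tRNAs as a whole took 3.74% and 3.41% of counts in Ctrl_1 and 2.14% to 3.01% in the Cl libraries. The part of this lower share in the mitochondrial values was not tested. In all, 0 of the 8 sums rose, 3 fell and 5, both families among them, did not pass. Over all 74 sums 40.5% passed in either direction, so 3 of 8 is near the share of all sums. In the hearts none of the 8 passed between the arms, where 0% of 70 sums passed.

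**Figure D4:**
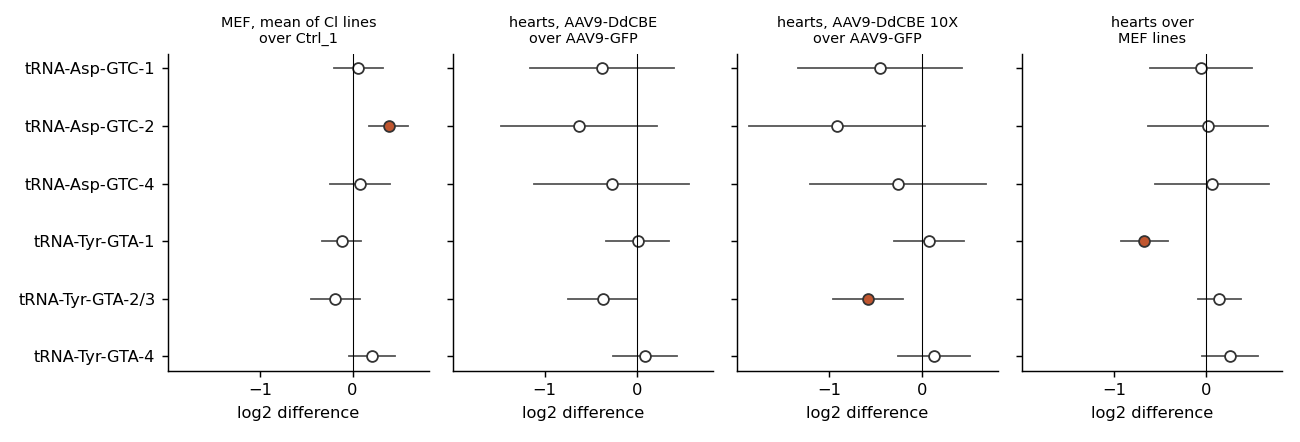
Log2 difference of the 6 measured isodecoder rows (points; bars are 95% intervals from edgeR) in 4 comparisons; filled points have an edgeR adjusted p under 0.05. The filled points are tRNA-Asp-GTC-2 in the Cl lines (0.39), tRNA-Tyr-GTA-2/3 in the 10X hearts (-0.58) and tRNA-Tyr-GTA-1 in hearts over MEF lines (-0.67).

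Hearts were then set against MEFs, with the passages of a line summed so that 8 hearts faced 4 lines and with nuclear tRNAs alone. Tissue and culture, vector, counting table and library set cannot be told apart in this comparison. The family totals did not pass. tRNA-Asp differed by -0.048 on the log2 scale (SE 0.25; 95% interval -0.59 to 0.50; edgeR adjusted p = 0.899) and tRNA-Tyr by -0.16 (SE 0.095; 95% interval -0.37 to 0.040; edgeR adjusted p = 0.141), where 70.8% of 48 sums passed. tRNA-His-GTG and tRNA-Asn-GTT, at 0.0062 and 0.020, did not pass either. The tRNA-Asp share was 3.11% ± 1.06 (SD, n = 8) in the hearts and 3.42% ± 0.284 (SD, n = 4) in the lines, and the hearts reached both above and below every line. The tRNA-Tyr share was 3.54% ± 0.453 against 4.14% ± 0.217, a difference of -0.60 percentage points (exact permutation p = 0.0384, adjusted to 0.0864). Mouse 17, the heart with the highest tRNA-Tyr, decided this value: without it the difference was -0.74 points (exact permutation, adjusted p = 0.00909) and the edgeR difference -0.21 (adjusted p = 0.0196). With scaling to nuclear totals the tRNA-Tyr difference was -0.24 (edgeR adjusted p = 0.0257). With mitochondrial tRNAs kept in the scaling it was -0.66 (edgeR adjusted p = 1.44e-05), but 63 of 70 sums passed in that setting. Mitochondrial tRNAs took 37.4% to 59.9% of heart counts and 2.14% to 3.74% of MEF counts.

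For tRNA-Asp the hearts had a wider range than the MEF libraries. Over the 8 MEF libraries the tRNA-Asp sum ran from 24822 to 37090 CPM, 1.49-fold (rank 10 of 48), against 2.69-fold over the hearts. For tRNA-Tyr the ranges were 1.41-fold over the MEF libraries (rank 13) and 1.47-fold over the hearts, or 1.31-fold without mouse 17. The hearts are separate mice and the MEF libraries are passages of lines, so these ranges cover different kinds of variation. The difference in spread between hearts and MEFs was not tested.

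Within tRNA-Tyr the isodecoders were mixed differently in hearts and MEFs. This was examined after the data had been seen. In the MEF libraries tRNA-Tyr-GTA-1 held 42.5% and 43.8% of the family's counts in Ctrl_1, 40.4% and 42.2% in Cl_1, 44.6% and 45.0% in Cl_2, and 44.9% in both Cl_3 libraries. In the hearts it held 26.3% to 38.3% (median 29.1%), and no heart reached the lowest MEF library. The means were 30.2% ± 3.99 (SD, n = 8) over the hearts and 43.5% ± 1.68 (SD, n = 4) over the lines, a difference of -13.4 percentage points. The exact two-sided permutation test gave p = 0.00202, the smallest that 8 against 4 allows, and 0.0182 after adjustment over 9 shares. With any MEF line left out the difference was -12.9 to -14.1 points (exact permutation, adjusted p = 0.0545). With fewer lines the smallest p that this test allows is larger. A lone share without overlap then cannot pass after adjustment over 9 shares, so the lost call gives no reading on the difference.

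The counts that tRNA-Tyr-GTA-1 did not take lay in the other rows. tRNA-Tyr-GTA-2/3 held 61.6% ± 5.16 of the family in the hearts and 50.2% ± 2.32 in the lines (exact permutation p = 0.00606, adjusted to 0.0273), with mouse 17 at 51.2% inside the MEF range. tRNA-Tyr-GTA-4 held 8.26% ± 1.20 and 6.28% ± 0.904 (exact permutation p = 0.0162, adjusted to 0.0485), with overlap. Both calls were lost with any MEF line left out and without mouse 5, 14, 19, 25 or 26, and that of tRNA-Tyr-GTA-4 also without mouse 18. Without those mice the differences were 10.7 to 11.3 points and 1.81 to 2.16 points. With fewer hearts or lines the smallest p that the exact test allows is also larger. The shares of 1 family sum to a whole, so these are not separate results. By level, tRNA-Tyr-GTA-1 was 1.59-fold lower in hearts than in MEF lines (log2 difference -0.67, SE 0.12; quasi-likelihood test in edgeR, adjusted p = 3.28e-04). Scaled over nuclear rows of both tables, it ran from 9280 to 15802 CPM in the hearts and from 16853 to 19436 CPM in the lines, without overlap. In that fit 53.2% of 158 rows passed and 27.2% passed as lower. tRNA-Tyr-GTA-2/3 (0.14, SE 0.11) and tRNA-Tyr-GTA-4 (0.26, SE 0.14) did not pass, with edgeR adjusted p of 0.300 and 0.142. With AAV9-GFP hearts alone, tRNA-Tyr-GTA-2/3 was higher than in the MEF lines by 0.43 (edgeR adjusted p = 0.00194).

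The tRNA-Asp mix was not called different between hearts and MEF lines. It did vary within each, with tRNA-Asp-GTC-2 at 13.0% to 19.1% over the hearts and 14.0% to 18.2% over the lines. tRNA-Asp-GTC-1 held 75.2% ± 1.40 of the family in the hearts and 76.2% ± 1.62 in the lines, tRNA-Asp-GTC-2 16.7% ± 1.98 and 16.2% ± 1.72, and tRNA-Asp-GTC-4 8.13% ± 0.798 and 7.64% ± 0.114 (SD, n = 8 and 4). None of the 3 passed (exact permutation, adjusted p of 0.455, 0.761 and 0.455), nor did the rows by level, at -0.052, 0.020 and 0.063 (SE 0.25 to 0.30). Summed over rows, 13.4% of the tRNA-Tyr mix moved between hearts and MEF lines and 0.973% of the tRNA-Asp mix. Among 42 anticodons whose rows could be matched between the tables these ranked 13 and 36, with a median of 8.29%. How near-identical reads were divided between isodecoders is not given in the sources used here, and values of single rows depend on it.

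**Figure D5:**
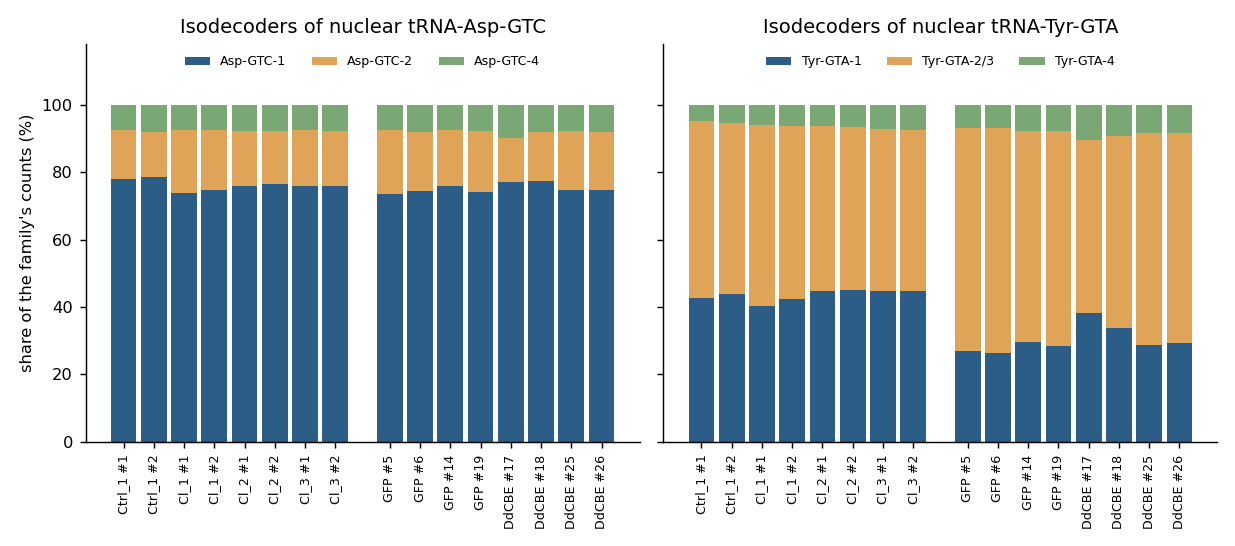
Isodecoder make-up of nuclear tRNA-Asp-GTC (left) and tRNA-Tyr-GTA (right) in each library, as a share of the family's counts (%, vertical axis), with MEF libraries left and hearts right. tRNA-Asp-GTC-1 takes 73.4% to 78.5% in every library, whereas tRNA-Tyr-GTA-1 takes 40.4% to 45.0% of MEF counts and 26.3% to 38.3% of heart counts, most in mouse 17.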

How the data were processed

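The authors deposited raw read counts per tRNA transcript, 1 table for MEFs and 1 for hearts. Per the labels' protocols, RNA extracted under mild acid was oxidised and beta-eliminated, and mim-tRNAseq libraries ran on a NextSeq 500. Tools and builds named are cutadapt 3.5 and mm39, per the submitters' processing notes. No aligner or counter is given in the sources used here. The members and lists were chosen with earlier results of these data known.

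Counts of rows, and sums of rows per anticodon, were tested over all features with edgeR 4.0.16 in R 4.3.3 (TMM, filterByExpr with a minimum count of 10 and total of 15, quasi-likelihood), with Benjamini-Hochberg adjustment and a threshold of 0.05; DESeq2 1.42.0 was an alternative. Rows and sums were scaled in separate fits. SE is the log2 difference over the square root of F. Shares were tested by exact two-sided permutation. Every member was described, and the 3 sums most correlated with each family were named. The hearts-against-MEF fit of rows and the tests of isodecoder shares were added after the data were examined. MEF replicate numbers gave correlations of deviations of 0.086 to 0.247 between lines, not all above 0.1, and were not used as pairs. Sequences were not used here. Charging was not analysed here.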

Additional observations from a re-analysis of the deposited data

Results flagged for a closer look

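Mouse 14 of AAV9-GFP lay far below the other 3 hearts of its arm in nuclear tRNA-Asp by Dixon's criterion for 4 samples. The tRNA-Asp anticodon sum was 8612 CPM there, against 20797 to 23144 CPM in the others, and the share of nuclear tRNA counts was 1.55%, against 3.69% to 4.02%. tRNA-Asp-GTC-1 had 6694 CPM against 17010 to 18812, and tRNA-Asp-GTC-4 had 667 CPM against 1820 to 2032. These 4 values come from 1 heart and are not independent. They are 4 of 34 checks of members and shares in the arms, and chance flags about 1 in 20. Mice 18 and 25 of AAV9-DdCBE were low as well, but an arm with a pair of low hearts has no single outlying sample.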

How the results depend on the processing

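Of 893 alternatives to 71 results, 730 left the result on its side of the threshold with its direction. The others were 51 with the direction turned, mostly of differences near 0, 41 that lost and 32 that gained a call, and 39 counts or ratios that moved; the cause was not tested. Scaling on nuclear tRNAs turned tRNA-Asp-GTC-1 in the mean Cl line (-0.0056) and the tRNA-Tyr sum between heart arms (0.027), and library totals turned the tRNA-Tyr sum in the 10X hearts (-0.22). With library totals or no filter 2 member rows passed over the mean Cl line, beside 96 of 201 and 101 of 355 in all. No filter gave 2 in Cl_1 and 1 in Cl_2, beside 84 and 94 of 355. Nuclear scaling gave 1 in Cl_3, beside 102 of 201. Among the Cl lines 1 passed with DESeq2, nuclear scaling or no filter, beside 67 of 201, 52 of 201 and 57 of 355. In the 10X hearts 0 passed with library totals, nuclear scaling or no filter, beside 57 of 180, 68 of 180 and 72 of 271. With no filter the tRNA-Asp sum passed in the mean Cl line (0.23), Cl_1 (0.27) and Cl_3 (0.25). With 5X hearts alone, 1 heart against 2, the tRNA-Asp difference between arms was -1.27; the spread in that fit comes from the AAV9-GFP pair alone, and 19 of 72 sums passed in it, so it is given as a value with no test. For hearts against MEF lines, the tRNA-Asp sum was 0.036 with AAV9-GFP hearts alone. In the same comparison the tRNA-Tyr sum passed with mitochondrial tRNAs kept (-0.66, beside 63 of 70 sums) and with nuclear totals (-0.24, beside 34 of 48). There tRNA-Asp-GTC-1 turned with DESeq2 (0.030), 8 MEF libraries as units (0.036), AAV9-GFP hearts alone (0.24) and no filter (0.015). With nuclear totals tRNA-Asp-GTC-2 (-0.090) and tRNA-Asp-GTC-4 (-0.027) turned. Rows past the threshold were 3 with 8 MEF libraries as units, beside 91 of 156 rows in all. With AAV9-GFP hearts alone they were 2, beside 112 of 169. With all counts as denominator the tRNA-Asp and tRNA-Tyr shares were lower in hearts by -1.56 and -2.03 percentage points and passed, and the tRNA-Tyr share between arms was -0.19 points. With the replicate block the tRNA-Asp-GTC-2 rise in the mean Cl line was 0.40, and the block changed no call of a named row in the MEFs.

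With each library left out in turn, the mean of the Cl lines gave -0.15 to 0.30 for tRNA-Asp-GTC-1, -0.18 to 0.40 for tRNA-Asp-GTC-4, 0.0079 to 0.46 for the tRNA-Asp sum and -0.12 to 0.041 for the tRNA-Tyr sum. By line, the tRNA-Asp sum ran from 0.079 to 0.52 in Cl_1, -0.071 to 0.37 in Cl_2 and 0.016 to 0.49 in Cl_3, and the tRNA-Tyr sum from -0.38 to 0.092 in Cl_1 and -0.072 to 0.0063 in Cl_2. tRNA-Tyr-GTA-4 in Cl_1 ran from -0.13 to 0.27. Counts of rows past the threshold moved as well. They are left out here, since many of these fits leave 1 library in a group. Between heart arms, tRNA-Asp-GTC-4 ran from -0.53 to 0.031, tRNA-Tyr-GTA-1 from -0.098 to 0.22, tRNA-Tyr-GTA-4 from -0.0039 to 0.28, the tRNA-Asp sum from -0.43 to 0.0046, the tRNA-Tyr sum from -0.10 to 0.070, the tRNA-Asp share from -0.92 to 0.082 points and the tRNA-Tyr share from -0.24 to 0.25 points. The tRNA-Tyr sum in the 10X hearts ran from -0.18 to 0.087. For hearts against MEF lines the tRNA-Asp sum ran from -0.11 to 0.070, the tRNA-Tyr sum from -0.21 to -0.11, tRNA-Asp-GTC-1 from -0.13 to 0.096, tRNA-Asp-GTC-2 from -0.079 to 0.18 and tRNA-Asp-GTC-4 from -0.017 to 0.22. The tRNA-Tyr share ran from -0.74 to -0.52 points, the tRNA-Tyr share of both families from -2.39 to 0.948 points and the tRNA-Asp-GTC-2 share from -0.23 to 1.17 points. The spread between hearts was 2.44-fold to 2.69-fold for tRNA-Asp and 1.31-fold to 1.47-fold for tRNA-Tyr. With 1473330 counts or more per library, counting error is small for the 6 measured rows; the number of hearts and lines sets the precision.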
